A study of Homo sapiens with 10 samples.

Results

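The 10 genes described here, DUSP4, DUSP6, SPRY2, SPRY4, SPRED1, SPRED2, EGR1, ETV4, ETV5 and PHLDA1, are genes that the ERK kinases are known to induce, and they were taken by symbol from a table of 23284 genes. All 10 were found in the table, with a value in every sample. The values come from K562, a human chronic myeloid leukemia line that carries the BCR-ABL fusion kinase, so every group shares this driver and the line is a single cell line. Cells were treated for 48 h with the vehicle DMSO, with CBP30 at 2 or 5 µM, or with I-CBP112 at 2 or 5 µM, and CBP30 and I-CBP112 are both inhibitors of the bromodomains of the acetyltransferases CREBBP and EP300. There were 2 biological replicates for each of the 5 conditions, 10 samples in all, and polyadenylated RNA was sequenced. Levels are given in FPKM, the fragments of a gene relative to its transcript length and to the mapped fragments of the library.

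In the MAPK pathway, adaptors at activated receptors or at BCR-ABL load RAS with GTP, and RAS recruits RAF. RAF phosphorylates MEK, and MEK phosphorylates ERK. Active ERK then induces a set of genes within minutes to hours. Some of these are outputs, the transcription factors EGR1, ETV4 and ETV5 among them, and others feed back on the pathway. DUSP4 and DUSP6 are phosphatases that remove the activating phosphates from MAP kinases, in the nucleus and in the cytoplasm respectively. Sprouty proteins (SPRY2, SPRY4) and the related SPRED proteins (SPRED1, SPRED2) restrain RAS and RAF, and SPRED1 and SPRED2 do so by bringing the RAS GTPase-activating protein neurofibromin to the membrane. PHLDA1, a protein with a pleckstrin homology domain, is also induced by ERK. The transcripts of these genes are often read as a measure of ERK output, but ERK activity was not measured in these samples.

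The values hold no read counts, and their sum per sample ranged from 547504 to 689095 FPKM. When 1 read was assumed behind each value of 398 long, rarely detected genes, the depth of the samples ranged from 0.925 to 1.08 times their mean. Across genes, which are not independent, Pearson's r between replicates was 0.962 to 0.976. Replicate 1 of 2 µM CBP30 stood apart. Its deviations from the mean of all samples fell with transcript length (Spearman's rho = −0.587 across 12130 genes), whereas in both samples of 5 µM CBP30 they rose with it (rho = 0.335 and 0.334). All 12 erythroid markers of K562 had at least 1 FPKM in every group, with a summed level between 1969 and 2008 FPKM with DMSO, 809 and 1046 with 2 µM CBP30, 690 and 729 with 5 µM CBP30, 1195 and 1318 after 2 µM I-CBP112, and 1179 and 1261 with 5 µM I-CBP112. With 5 µM CBP30, 10 of the 12 fell and 1 rose. The summed level of 10 markers of other blood and stromal cells lay between 61.0 and 88.5 FPKM in all samples, mostly from EPCAM and CD3D, and the B cell marker MS4A1 was listed at 0 throughout. Of the 5 of these markers that were tested, 3 rose with 5 µM CBP30, CD3D to 149%, CD3E to 293% and COL1A1 to 399% of DMSO, and EPCAM fell to 54.8%. With 2 µM CBP30, CD3D, CD3E and COL1A1 rose, with 5 µM I-CBP112 COL1A1 rose, and at 2 µM of it none was called. The part of transcript length, the erythroid markers or the other markers in the results below was not tested beyond the values given.

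In the hg19 build 9 of the 10 genes lie at chr5:137801168-137804992 (EGR1), chr5:141689992-141706020 (SPRY4), chr13:80910111-80915261 (SPRY2), chr15:38545037-38649450 (SPRED1), chr2:65537985-65659771 (SPRED2), chr12:89741012-89746278 (DUSP6), chr12:76419227-76425556 (PHLDA1), chr17:41605212-41656988 (ETV4) and chr3:185764103-185828107 (ETV5). All 10 are protein-coding. ETV5 overlaps DGKG on the same strand, so that reads in the shared stretch could be assigned to either gene. ETV4 overlaps DHX8 on the opposite strand. The libraries were stranded, but whether the reads were counted by strand is not given in the sources used here.

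The 250 bases before a transcription start are shown for EGR1, the gene that rose in every treatment, and for SPRY2, since they are the genes for which a searched motif was found. The sequences are from RefSeq (GRCh38.p14), are read 5′ to 3′ on the strand of the gene, and matched hg19 once each, at chr5:137800918-137801167 on the plus strand and at chr13:80915262-80915511 on the minus strand. Capitals mark the motifs. SPRY2 has other listed starts, and the start shown is the one with a match. The 250 bases before the others, at chr13:80914244-80914493 and chr13:80913795-80914044 in hg19, held none of the searched motifs.
EGR1: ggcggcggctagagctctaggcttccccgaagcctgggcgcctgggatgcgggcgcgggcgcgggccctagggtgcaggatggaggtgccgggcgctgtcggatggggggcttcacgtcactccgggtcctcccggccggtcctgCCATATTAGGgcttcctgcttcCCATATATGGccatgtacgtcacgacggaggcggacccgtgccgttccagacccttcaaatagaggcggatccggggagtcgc
SPRY2: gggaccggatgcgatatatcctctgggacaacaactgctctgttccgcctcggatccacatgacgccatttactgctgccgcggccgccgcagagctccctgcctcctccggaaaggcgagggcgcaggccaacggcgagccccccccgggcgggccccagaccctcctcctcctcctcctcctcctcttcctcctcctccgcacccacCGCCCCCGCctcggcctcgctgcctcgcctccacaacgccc
The EGR1 sequence holds 2 CArG boxes, the motif of serum response factor, at 105 to 96 and at 83 to 74 bases before the start. CArG boxes were found in 1.159% of 35116 promoters of this length. The SPRY2 sequence holds the motif GCGGGGGCG of the EGR family on its other strand, at 41 to 33 bases before the start, and 4.724% of the promoters hold this motif on either strand. The ETS motif CCGGAAG (8.517% of promoters), the CRE motif TGACGTCA (1.646%) and the AP-1 motif TGANTCA (6.573%) were not found in this window in any of the 7 genes that had an entry. DUSP4, ETV4 and ETV5 had none. A match describes letters only, and binding was not measured at these sequences here.

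With DMSO the levels of the 10 genes spanned a wide range. DUSP6 was the lowest, with a mean of 0.311 FPKM, followed by DUSP4 (2.21), PHLDA1 (3.29), SPRED1 (4.97), SPRY2 (6.93), ETV5 (12.3), SPRY4 (17.5), SPRED2 (21.0), ETV4 (32.8) and EGR1 (76.8). No neighbours in this order overlapped in their 2 samples. DUSP6 had a mean of 0.429 FPKM over all samples and fell under the minimum of 0.5 FPKM set for testing, so 9 of the 10 genes were tested, among 12788 genes. Differences are those of log2(FPKM + 1), and the added 1 makes the change of low genes look smaller, and genes were called at a Benjamini-Hochberg adjusted p under 0.05 over all tested genes (limma, all samples in 1 fit). In bulk RNA, a change in the share of cells that express a gene cannot be told apart from a change per cell.

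Most of these genes were higher after CBP30 than with DMSO. The 7 of the 9 tested that were higher at 5 than at 2 µM CBP30 were a partly different set. It held SPRED2, which was not called against DMSO, and lacked EGR1, which was lower at 5 than at 2 µM. With 5 µM CBP30, 7 of the 9 tested genes rose (DUSP4, SPRY2, SPRY4, SPRED1, EGR1, ETV5 and PHLDA1), 1 fell (ETV4) and SPRED2 was not called. Over all tested genes, 21.2% were called higher and 25.4% lower in this comparison. With 2 µM CBP30, 5 rose and none fell, against 15.9% higher and 16.3% lower over all genes. With 5 µM I-CBP112, 5 rose and none fell, against 3.84% and 3.28%. The 5 that rose were DUSP4, SPRY2, SPRY4, EGR1 and ETV5 in both cases. With 2 µM I-CBP112 only EGR1 rose, and 0.868% of all genes were called higher and 0.735% lower. The median log2 fold change of the 9 genes was 0.43 with 5 µM CBP30, 0.18 with 2 µM CBP30, 0.26 with 5 µM I-CBP112 and 0.09 with 2 µM of it, while the median of all genes tested lay between −0.01 and 0.01. Both samples were above both DMSO samples for 9 of the 10 genes at 5 µM CBP30 (39.5% of all tested genes) and at 5 µM I-CBP112 (30.5%), for 7 genes at 2 µM CBP30 (31.4%) and for 5 genes at 2 µM I-CBP112 (25.0%). Both were below both DMSO samples for ETV4 with 5 µM CBP30 (42.6% of all genes) and with 5 µM I-CBP112 (33.7%), for SPRED2 with 2 µM CBP30 (30.5%), and for DUSP6 and SPRY2 with 2 µM I-CBP112 (28.3%). All 4 comparisons share the DMSO samples, so they are not independent of each other.

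**Figure D1:**
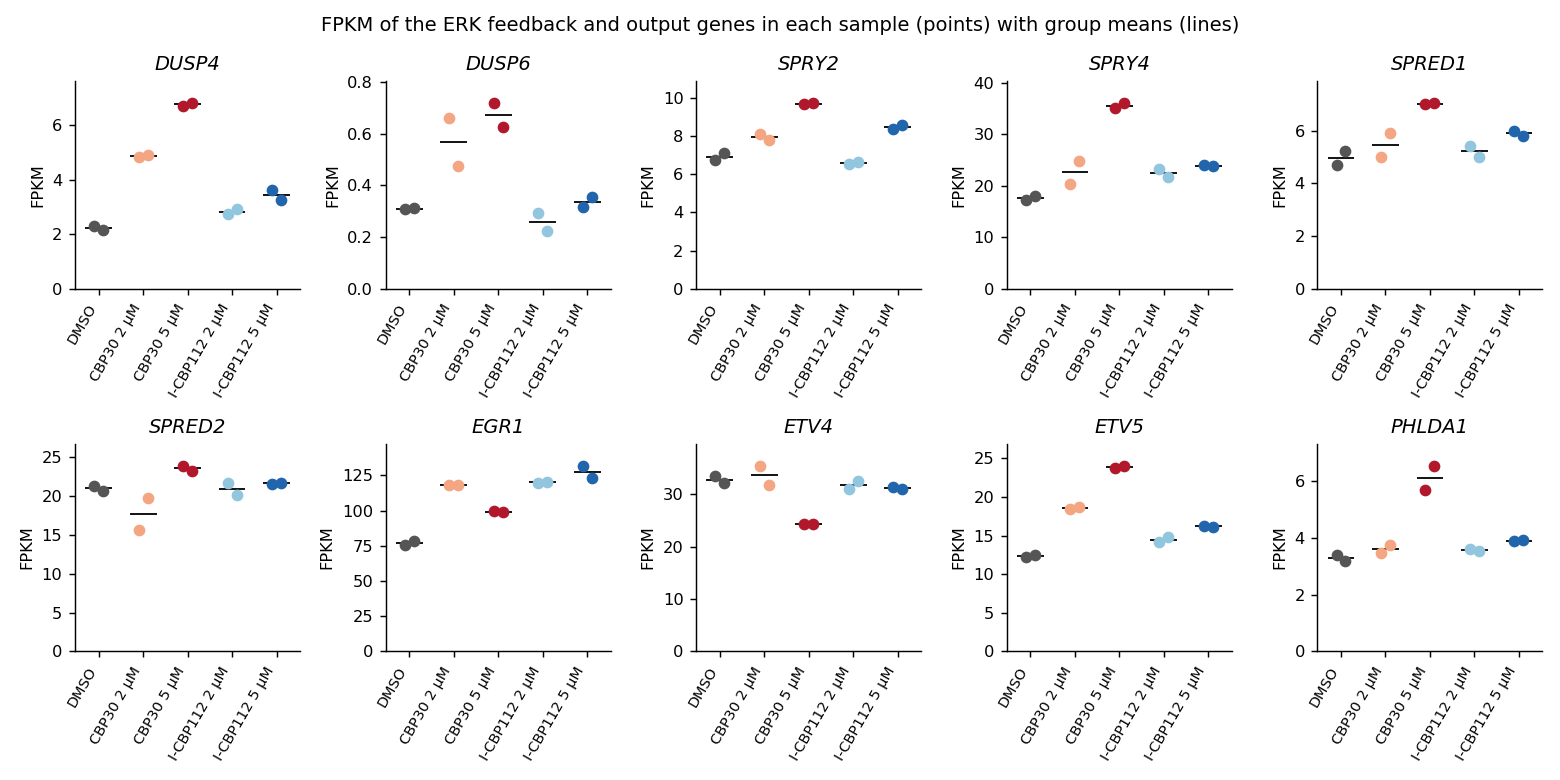
FPKM (vertical axis, linear and from 0) of each of the 10 genes in each sample, by condition; points are the 2 samples and the line is their mean. DUSP4 and ETV5 climbed from DMSO to 5 µM CBP30, EGR1 was highest with I-CBP112, and ETV4 was lowest with 5 µM CBP30.

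Of the phosphatases, DUSP4 had the largest rise of the 9 genes with 5 µM CBP30. Its level was 2.28 and 2.15 FPKM in the DMSO samples, 4.84 and 4.90 with 2 µM CBP30, 6.72 and 6.80 with 5 µM CBP30, 2.73 and 2.91 after 2 µM I-CBP112, and 3.61 and 3.24 with 5 µM I-CBP112. Every treated sample was above both DMSO samples, and no 2 conditions overlapped. The mean of 6.76 ± 0.0589 FPKM (SD, n = 2) with 5 µM CBP30 was 305% of the DMSO mean of 2.21 ± 0.0972 (log2 fold change 1.27, SE 0.0650, adjusted p = 1.63e-05), and the mean at 2 µM was 220% (log2 fold change 0.87, adjusted p = 0.000225). The rise with 5 µM I-CBP112 was smaller, at 155% of DMSO (log2 fold change 0.46, adjusted p = 0.0089). This last call was lost without either DMSO sample (adjusted p = 0.0534 and 0.0719 without replicates 1 and 2) and without replicate 1 of 5 µM I-CBP112 (0.0760). With 2 µM I-CBP112 the log2 fold change was 0.25 and did not pass the test (adjusted p = 0.138).

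DUSP6, the cytoplasmic phosphatase specific for ERK, was listed at 0.309 and 0.313 FPKM with DMSO. It was at 0.660 and 0.476 with 2 µM CBP30 and at 0.718 and 0.625 with 5 µM CBP30, all above the DMSO samples. With I-CBP112 it was at 0.294 and 0.225 at 2 µM and at 0.317 and 0.355 at 5 µM. When all genes of the table were kept in the fit, the log2 fold change was 0.35 with 5 µM CBP30 (SE 0.0619, adjusted p = 0.0110) and 0.26 at 2 µM (adjusted p = 0.0494), and with I-CBP112 it was 0.03 at 5 µM and −0.06 at 2 µM, neither of them called. The call at 2 µM CBP30 was just under the threshold. Unlike the tested genes, DUSP6 was not followed through the alternative settings, so its calls were not checked in that way.

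Both Sprouty genes rose with CBP30. SPRY4 was at 17.1 and 17.9 FPKM with DMSO, 20.4 and 24.7 with 2 µM CBP30, 35.1 and 36.0 with 5 µM CBP30, 23.3 and 21.8 after 2 µM I-CBP112, and 24.0 and 23.8 with 5 µM I-CBP112. The 5 µM CBP30 samples stood above all others, and the replicates of 2 µM CBP30 lay further apart than those of any other condition. The mean with 5 µM CBP30 was 203% of DMSO (log2 fold change 0.98, SE 0.0859, adjusted p = 0.000151). SPRY4 also rose at 2 µM (0.34, adjusted p = 0.0231), a call that was lost in a limma fit of only the groups compared (adjusted p = 0.189). The rise was 0.43 for 5 µM I-CBP112 (adjusted p = 0.0308), and the value with 2 µM I-CBP112 was as large but not called (0.34, adjusted p = 0.125). The call at 2 µM CBP30 was lost without either DMSO sample (adjusted p = 0.116 and 0.0792) and with no filter on low genes (0.0555), as was that with 5 µM I-CBP112 with no filter (0.0664). The call with 5 µM I-CBP112 was lost without either sample of DMSO, of 5 µM CBP30 or of I-CBP112 at 2 or 5 µM (adjusted p from 0.0602 to 0.182). Without either sample of 2 µM CBP30, SPRY4 was called with 2 µM I-CBP112 (adjusted p = 0.00963 and 0.00977).

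SPRY2 changed less. Its levels were 6.77 and 7.10 FPKM with DMSO, 8.14 and 7.81 with 2 µM CBP30, 9.67 and 9.73 with 5 µM CBP30, 6.55 and 6.64 after 2 µM I-CBP112, and 8.36 and 8.59 with 5 µM I-CBP112. The samples of 2 µM I-CBP112 were below those of DMSO and all the others were above them. The log2 fold change was 0.43 with 5 µM CBP30 (SE 0.0504, adjusted p = 0.000515), 0.18 at 2 µM of the same compound (adjusted p = 0.0344) and 0.26 for 5 µM I-CBP112 (adjusted p = 0.0289). With 2 µM I-CBP112 it was −0.06 (adjusted p = 0.678). In a limma fit of only the groups compared, SPRY2 was not called with 2 µM CBP30 (adjusted p = 0.297) or with 5 µM I-CBP112 (0.0524). The calls for 2 µM CBP30 and for 5 µM I-CBP112 were lost without either sample of DMSO, 5 µM CBP30 or I-CBP112 at 2 or 5 µM (adjusted p from 0.0611 to 0.167 and from 0.0626 to 0.184) and in a fit blocked on the replicate number (0.0520 and 0.0530), and the rise with 5 µM CBP30 was not. With the trend with transcript length removed, the log2 fold change at 2 µM CBP30 was 0.11 and not called (adjusted p = 0.0987).

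Of the SPRED genes, SPRED1 rose with 5 µM CBP30 and SPRED2 was not called in any treatment. SPRED1 was at 4.70 and 5.25 FPKM with DMSO, 4.99 and 5.92 with 2 µM CBP30, 7.03 and 7.05 with 5 µM CBP30, 5.41 and 5.02 after 2 µM I-CBP112, and 6.01 and 5.80 with 5 µM I-CBP112. The 2 µM samples of both compounds overlapped DMSO. The log2 fold change with 5 µM CBP30 was 0.43 (SE 0.0847, adjusted p = 0.00533). SPRED1 has a long transcript of 7270 bases, and with the trend with transcript length removed its log2 fold change was 0.32 with 5 µM CBP30 (adjusted p = 0.00193), 0.27 with 2 µM CBP30 (adjusted p = 0.00743, against 0.11 and 0.353 otherwise) and 0.23 with 5 µM I-CBP112 (adjusted p = 0.0331, against 0.21 and 0.202).

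SPRED2 was at 21.3 and 20.7 FPKM with DMSO and at 23.9 and 23.2 with 5 µM CBP30 (log2 fold change 0.16, SE 0.0970, adjusted p = 0.218). With 2 µM CBP30 it was at 15.6 and 19.7, below both DMSO samples, and replicate 1 was the lower (log2 fold change −0.25, adjusted p = 0.0933). Without replicate 2 of 2 µM CBP30, SPRED2 was called lower (−0.40, adjusted p = 0.00102), and without either sample of 2 µM CBP30 it was called higher at 5 µM (0.16, adjusted p = 0.0147 and 0.0149). The I-CBP112 samples were at 21.6 and 20.2 at 2 µM and at 21.6 and 21.7 at 5 µM.

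EGR1, the zinc finger factor that heads the immediate early response to ERK, rose in all 4 treatments. It was at 75.4 and 78.2 FPKM with DMSO, 118.3 and 118.2 with 2 µM CBP30, 99.5 and 98.8 with 5 µM CBP30, 119.5 and 120.6 after 2 µM I-CBP112, and 131.7 and 123.0 with 5 µM I-CBP112. Among the genes described here, its order of conditions was its own. The 5 µM CBP30 samples, at the top for most of these genes, were the lowest of the treated samples for EGR1. The log2 fold change was 0.37 with 5 µM CBP30 (adjusted p = 0.00100), 0.62 with 2 µM CBP30 (0.000281), 0.72 with 5 µM I-CBP112 (0.000498) and 0.64 with 2 µM I-CBP112 (0.00260), with an SE of 0.0495. EGR1 was called higher in each of the 4 treatments under all 20 alternative settings tried.

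The ETS factors ETV4 and ETV5, which are close relatives of the PEA3 group, moved apart. ETV5 was at 12.2 and 12.5 FPKM with DMSO, 18.5 and 18.6 with 2 µM CBP30, 23.8 and 24.0 with 5 µM CBP30, 14.1 and 14.8 after 2 µM I-CBP112, and 16.2 and 16.2 with 5 µM I-CBP112. No conditions overlapped, and the order was the same as for DUSP4. The mean with 5 µM CBP30 was 194% of DMSO (log2 fold change 0.90, SE 0.0449, adjusted p = 1.51e-05), with 2 µM CBP30 it was 150% (0.55, adjusted p = 0.000298) and for 5 µM I-CBP112 it was 131% (0.37, adjusted p = 0.00509). The call with 2 µM CBP30 was lost in a limma fit of only the groups compared (adjusted p = 0.0622). The value with 2 µM I-CBP112 was 0.21 (adjusted p = 0.0798), and it was called without either sample of 2 µM CBP30 (adjusted p = 0.0201 in both). The call with 5 µM I-CBP112 was lost without replicate 1 of DMSO (adjusted p = 0.0535) and without either sample of 5 µM I-CBP112 (0.0564 and 0.0536).

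ETV4 was at 33.4 and 32.1 FPKM with DMSO and at 24.3 and 24.4 with 5 µM CBP30, which is 74.3% of DMSO (log2 fold change −0.41, SE 0.0600, adjusted p = 0.00135). With 2 µM CBP30 it was at 35.4 and 31.8, on either side of the DMSO samples (0.03, adjusted p = 0.701). The I-CBP112 samples were at 31.0 and 32.5 at 2 µM and at 31.4 and 31.0 at 5 µM, with log2 fold changes of −0.04 and −0.07 that were not called. Only the 5 µM CBP30 samples stood clear of the others.

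PHLDA1 rose with 5 µM CBP30 and was near DMSO elsewhere. It was at 3.40 and 3.19 FPKM with DMSO, 3.48 and 3.73 with 2 µM CBP30, 5.70 and 6.52 with 5 µM CBP30, 3.61 and 3.54 after 2 µM I-CBP112, and 3.89 and 3.91 with 5 µM I-CBP112. The mean with 5 µM CBP30 was 186% of DMSO (log2 fold change 0.73, SE 0.0731, adjusted p = 0.000272). The other log2 fold changes were 0.10 with 2 µM CBP30, 0.19 with 5 µM I-CBP112 and 0.09 with 2 µM I-CBP112, none of them called, although every treated sample was above both DMSO samples.

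**Figure D2:**
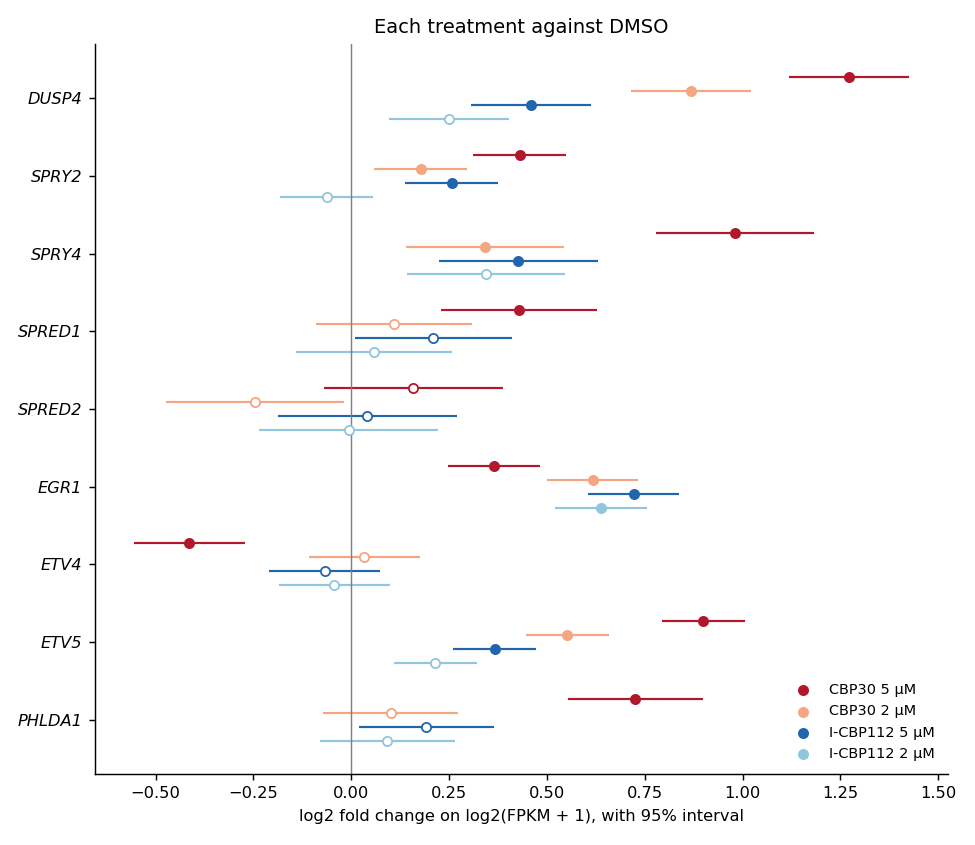
Log2 fold change against DMSO on the log2(FPKM + 1) scale, with its 95% interval, for the 9 tested genes in each of the 4 treatments; filled points were called at an adjusted p under 0.05 and open points were not. With 5 µM CBP30 the values ran from −0.41 for ETV4 to 1.27 for DUSP4, and EGR1 is the gene with a filled point in every treatment.

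The concentrations of each compound were then compared. From 2 to 5 µM CBP30, 7 of the 9 genes rose (17.6% of all genes were called higher) and 2 fell (21.3% lower). The largest rises were those of SPRY4 (log2 difference 0.64, SE 0.0859, adjusted p = 0.00352) and PHLDA1 (0.63, SE 0.0731, adjusted p = 0.00235), followed by SPRED2 (0.40, adjusted p = 0.0193), DUSP4 (0.40, adjusted p = 0.00631), ETV5 (0.35, adjusted p = 0.00306), SPRED1 (0.32, adjusted p = 0.0255) and SPRY2 (0.25, adjusted p = 0.0112). ETV4 fell by 0.45 (adjusted p = 0.00350) and EGR1 fell by 0.25 (adjusted p = 0.0108). With the trend with transcript length removed, the difference of SPRED1 was 0.05 (adjusted p = 0.453), that of DUSP4 was 0.23 (adjusted p = 0.0494), and the other 7 genes were still called. Without either sample of 5 µM CBP30, 4 of the rises and 1 of the falls were called, and those lost were SPRY2, SPRED1, SPRED2 and EGR1, with adjusted p from 0.0617 to 0.113. Without replicate 1 of 2 µM CBP30, SPRED1 was lost as well (adjusted p = 0.0649). With no filter on low genes, SPRED1 (0.0594) and SPRED2 (0.0536) were not called. The fall of EGR1 was −0.07 and not called under quantile normalization (adjusted p = 0.474), and a fit of the CBP30 samples alone called none of the 9 genes (adjusted p from 0.123 to 0.174). The share of all tested genes called in that fit is not given here.

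From 2 to 5 µM I-CBP112, limma called 0 of the 9 genes, against 0.0547% of all genes higher and 0.00782% lower. At an unadjusted p under 0.05, 3 of the 9 were higher, against 3.35% of all genes tested, SPRY2 with a log2 difference of 0.32 (95% interval 0.20 to 0.44, adjusted p = 0.209), DUSP4 with 0.21 (0.06 to 0.36, adjusted p = 0.666) and ETV5 with 0.15 (0.05 to 0.26, adjusted p = 0.660). For the remaining genes the intervals included 0, and the widest reached from −0.18 to 0.28 for SPRED2.

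The compounds were compared at matched concentrations, both after 48 h, which gives 2 comparisons for each of the 9 genes, with p-values adjusted over all genes tested. At 5 µM, 5 genes were higher with CBP30 than with I-CBP112, against 13.6% of all genes, and 2 were lower, against 17.9%. DUSP4 was higher by 0.81 (SE 0.0650, adjusted p = 0.000289), SPRY4 by 0.55 (adjusted p = 0.00371), PHLDA1 by 0.53 (adjusted p = 0.00228), ETV5 by 0.53 (adjusted p = 0.000353) and SPRY2 by 0.17 (adjusted p = 0.0368). EGR1 was lower with CBP30 (−0.36, adjusted p = 0.00241), and so was ETV4 (−0.35, adjusted p = 0.00561). SPRED1 differed by 0.22 (95% interval 0.02 to 0.42, adjusted p = 0.0902) and SPRED2 by 0.12 (−0.11 to 0.35). The call of SPRY2 was lost without any one sample of DMSO, 5 µM CBP30 or I-CBP112 at 2 or 5 µM (adjusted p from 0.0576 to 0.174), in a fit blocked on the replicate number (0.0555), and under median centring (0.0548) or quantile normalization (0.0725). Without either sample of 2 µM CBP30, SPRED1 was called (adjusted p = 0.0230 and 0.0233).

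At 2 µM, 3 genes were higher with CBP30, against 7.13% of all genes, and none was lower, against 8.45%. These were DUSP4 (0.62, adjusted p = 0.00251), ETV5 (0.34, adjusted p = 0.00583) and SPRY2 (0.24, adjusted p = 0.0248). A limma fit of only the groups compared called none of them (adjusted p from 0.171 to 0.322). Without replicate 1 of 2 µM I-CBP112 only DUSP4 was called (ETV5 0.0502, SPRY2 0.135). SPRY2 was also lost without replicate 2 of 2 µM I-CBP112 (adjusted p = 0.102) or any one sample of 5 µM CBP30 or 5 µM I-CBP112 (from 0.0556 to 0.0588). The difference was close to 0 for SPRY4 (−0.002, 95% interval −0.20 to 0.20), PHLDA1 (0.009, −0.16 to 0.18) and EGR1 (−0.02, −0.14 to 0.10). It was 0.08 for ETV4 (−0.07 to 0.22), 0.05 for SPRED1 (−0.15 to 0.25) and −0.24 for SPRED2 (−0.47 to −0.01, adjusted p = 0.126). With the trend with transcript length removed, the difference of SPRED1 was 0.22 and called (adjusted p = 0.0269), also with the replicate block (0.0414). Without replicate 2 of 2 µM CBP30, SPRED2 was called lower (−0.40, adjusted p = 0.00138) and ETV4 higher (0.15, adjusted p = 0.0265). For DUSP6, in the fit of all genes, CBP30 was higher by 0.32 at 5 µM (adjusted p = 0.0240) and by 0.31 at 2 µM (adjusted p = 0.0490, just under the threshold). These DUSP6 calls were not checked in the alternative settings.

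**Figure D3:**
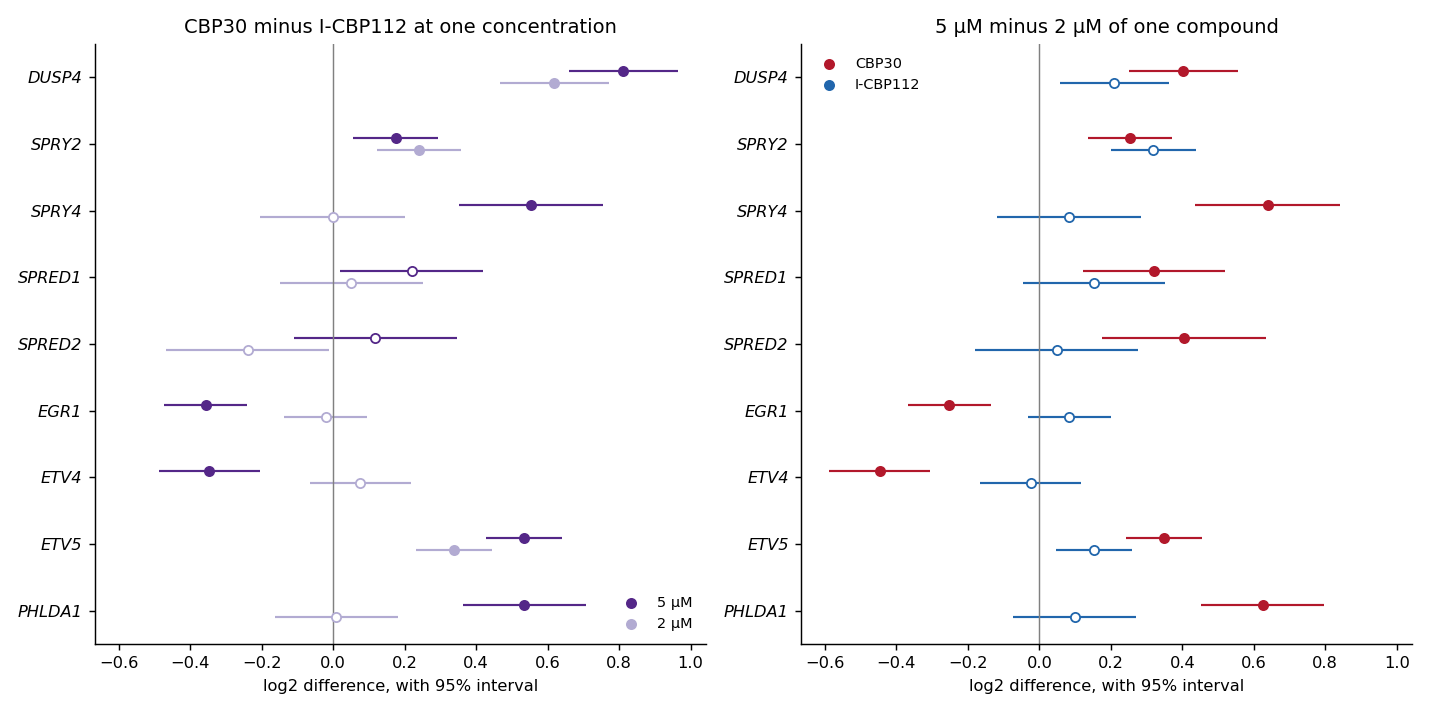
Log2 differences on the log2(FPKM + 1) scale with 95% intervals for the 9 tested genes, between the compounds at one concentration (left) and between the concentrations of one compound (right); filled points were called and open points were not. SPRY4 and PHLDA1 differed between the compounds at 5 µM (0.55 and 0.53) and not at 2 µM (−0.002 and 0.009), and no point of I-CBP112 is filled on the right.

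The other genes of the pathway were read from lists of the kinases, adaptors and targets. Upstream of ERK the calls went both ways with 5 µM CBP30, for which 21.2% of all tested genes were called higher and 25.4% lower. Of 11 adaptors and RAS activators, 4 rose, 2 fell and 5 were not called. FRS2, the docking protein of FGF receptors, rose from a mean of 3.52 to 6.05 FPKM (log2 fold change 0.64, adjusted p = 0.00243), and the adaptors GAB2 (−0.54, adjusted p = 0.00491) and SHC1 (−0.42, adjusted p = 0.00256) fell. Of the 16 tested genes for RAS, RAF, MEK, ERK and their scaffolds, 5 rose, 3 fell and 8 were not called. KSR1, a scaffold for RAF, MEK and ERK, fell from 23.4 to 13.8 FPKM (−0.72, adjusted p = 0.00650), the RAS relative MRAS fell (−0.56, adjusted p = 0.00142) and the RAS relative RRAS rose (0.60, adjusted p = 0.0471). The call of RRAS was just under the threshold. Its DMSO samples lay apart, at 2.25 and 3.69 FPKM, and those with 5 µM CBP30 were at 4.62 and 5.22. Of 6 RAS GTPase-activating proteins, 2 rose and 2 fell. RASA1 rose from 14.5 to 25.0 FPKM (0.75, adjusted p = 0.000749), while RASA3 fell from 9.47 to 5.55 FPKM (−0.68, adjusted p = 0.000102). With 5 µM I-CBP112 none of the adaptors and none of the RAS, RAF, MEK and ERK genes was called. RASA3 was the only GTPase-activating protein called (−0.27, adjusted p = 0.0316). Few genes of any kind were called in that comparison, 3.84% of all tested genes higher and 3.28% lower.

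Downstream, 10 genes were tested, for kinases that ERK activates, for serum response factor (SRF) and for the ternary complex factors, which bind with SRF at CArG boxes. With 5 µM CBP30, 3 rose and 2 fell, against 21.2% and 25.4% of all tested genes. The ternary complex factors ELK3 (0.56, adjusted p = 0.0203) and ELK1 (0.33, adjusted p = 0.00367) rose, and SRF fell (−0.25, adjusted p = 0.0240). The kinase MKNK2, which phosphorylates the initiation factor eIF4E, fell from 40.0 to 30.6 FPKM (−0.37, adjusted p = 0.000713). MKNK2 also fell with 5 µM I-CBP112 (−0.23, adjusted p = 0.0307). Of the other phosphatases of MAP kinases, 3 rose and 3 fell among 7 with 5 µM CBP30, against the same 21.2% and 25.4%. DUSP5, the nuclear phosphatase specific for ERK, rose from 2.72 FPKM with DMSO to 6.06 at 2 µM CBP30 and 7.78 at 5 µM (0.92 and 1.24, adjusted p = 0.000499 and 5.4e-05) and to 4.31 with 5 µM I-CBP112 (0.51, adjusted p = 0.0162). DUSP16, which acts on JNK and p38, rose with 5 µM CBP30 (0.46, adjusted p = 0.00107), and DUSP9 fell from 2.66 to 0.963 FPKM (−0.90, adjusted p = 0.000994).

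Of the 5 tested paralogs of the 10 genes, 2 rose and 1 fell with 5 µM CBP30, against 21.2% higher and 25.4% lower over all tested genes. ETV1, the third member of the ETV4 and ETV5 group, rose from 4.41 to 8.74 FPKM (0.85, adjusted p = 0.000327) and also rose with 2 µM CBP30 (0.35, adjusted p = 0.0229). PHLDA2, a relative of PHLDA1, fell from 10.99 to 3.99 FPKM (−1.27, adjusted p = 0.00499). EGR2, a relative of EGR1, was low, at 0.492 FPKM with DMSO, and rose with 5 µM CBP30 (0.24, adjusted p = 0.0449), with CBP30 at 2 µM (0.28, adjusted p = 0.0383) and with I-CBP112 at 5 µM (0.53, adjusted p = 0.0123). Its highest mean was with 5 µM I-CBP112 (1.15 FPKM), the condition in which EGR1 was also highest. The means of EGR2 had the same order over all 5 conditions as those of EGR1.

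Among 17 other genes that ERK induces, 10 rose and 4 fell with 5 µM CBP30 (21.2% higher and 25.4% lower over all tested genes). With 2 µM CBP30, 7 rose and 4 fell (15.9% and 16.3%). With 5 µM I-CBP112, 4 rose and 1 fell (3.84% and 3.28%), and at 2 µM of it 2 rose and none fell (0.868% and 0.735%). IER3, an immediate early gene linked to cell survival, had 27.9 FPKM with DMSO and rose in all 4 treatments, reaching 107 FPKM at 2 µM CBP30, 89.3 at 5 µM CBP30, 55.5 at 2 µM I-CBP112 and 68.8 at 5 µM I-CBP112 (log2 fold changes 1.87, 1.64, 0.97 and 1.27). PLAUR, the urokinase receptor, also rose in all 4 (0.72 and 0.37 with 2 and 5 µM CBP30, 0.40 and 0.37 with I-CBP112). The neuropeptide precursor VGF rose from 4.15 to 17.9 FPKM with 5 µM CBP30 (1.88, adjusted p = 0.000202) and to 7.79 with 5 µM I-CBP112 (0.77, adjusted p = 0.0461), and FOS, the partner of JUN in AP-1, rose from 2.28 to 4.14 FPKM with 5 µM CBP30 (0.65, adjusted p = 0.00263). Other targets went down. FOSL1, a relative of FOS, fell from 6.42 to 1.24 FPKM (−1.73, adjusted p = 8.07e-05) and cyclin D1 (CCND1) fell from 4.36 to 0.712 FPKM (−1.65, adjusted p = 3.02e-05) with 5 µM CBP30. Both were also called lower with 2 µM CBP30, at means of 2.81 FPKM for FOSL1 and 1.00 for CCND1. CCND1 was called lower with 5 µM I-CBP112 as well (2.59 FPKM), and FOSL1 was not called with I-CBP112.

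**Figure D4:**
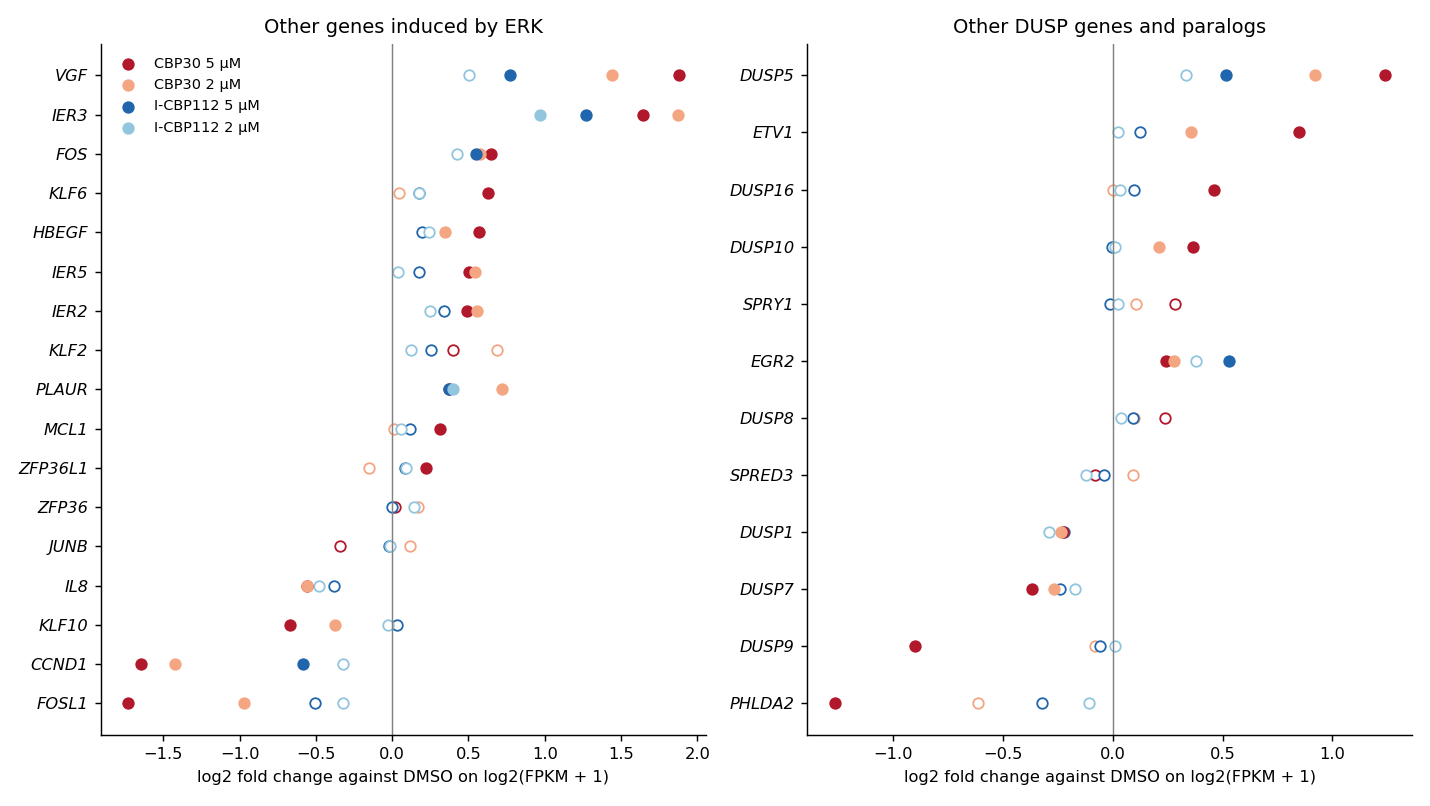
Log2 fold change against DMSO on the log2(FPKM + 1) scale for the tested genes of 3 lists, other genes that ERK induces (left) and other DUSP genes with paralogs of the 10 genes (right), a point for each of the 4 treatments; filled points were called and open points were not. With 5 µM CBP30 the values reached from −1.73 (FOSL1) to 1.88 (VGF) on the left and from −1.27 (PHLDA2) to 1.24 (DUSP5) on the right.

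**Figure D5:**
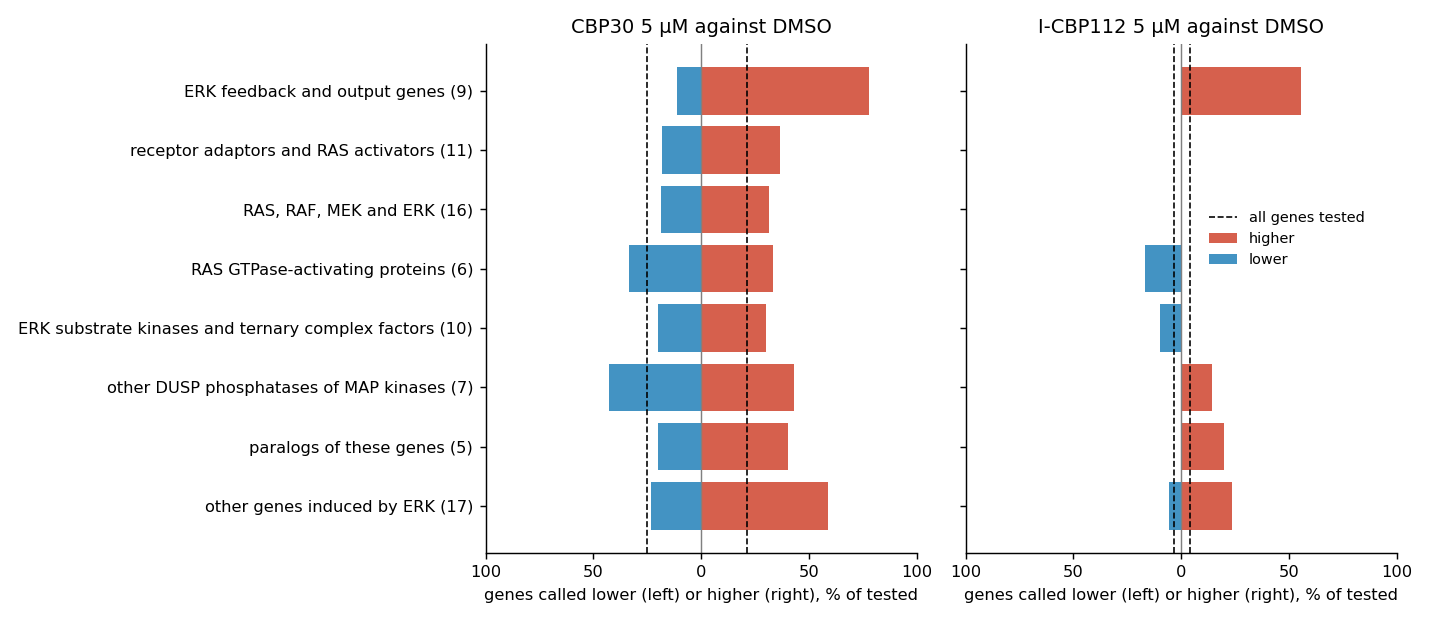
Share of the tested genes of each list called lower (to the left of 0) or higher (to the right), in percent, for 5 µM CBP30 and for 5 µM I-CBP112 against DMSO; the number of tested genes is in brackets and the dashed lines mark the share over all tested genes. The 10 feedback and output genes had 7 of 9 called higher with CBP30 and 5 of 9 with I-CBP112, against 21.2% and 3.84% of all genes.

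The genes whose pattern over the 10 samples was most like that of DUSP6, and of DUSP4 as the gene with the largest change, were looked up among the 8997 genes that averaged 5 FPKM or more. For DUSP4 they were BRP44 (Pearson's r = 0.994), FAM69A (0.993) and ATMIN (0.992), and for DUSP6 they were SUOX (0.982), ARL6IP6 (0.974) and PRSS16 (0.972). BRP44 went from a mean of 6.84 FPKM with DMSO to 44.8 with 5 µM CBP30 and SUOX from 10.8 to 17.7. The samples share their conditions, and these values are a description of likeness over 5 conditions.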

How the data were processed

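RNA of K562 cells was sequenced for 10 samples, as stranded libraries of polyadenylated RNA read as single reads. The authors deposited 1 table of FPKM values with a column per sample and no pooling of replicates, and per the labels the build is hg19. The submitters' processing notes name TopHat2 2.0.10, Bowtie 1.0.0, SAMtools 0.1.19, Cufflinks 2.2.1 and Cuffnorm, without their order. FPKM holds no counts, so total depth and counting error are unknown, relative depth could only be estimated, and only the spread of 2 samples a condition gives the precision.

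The scale of analysis was log2(FPKM + 1), and limma 3.58.1 was used (R 4.3.3; eBayes with trend). The 12788 genes that averaged 0.5 FPKM or more entered 1 fit of 5 group means (5 residual degrees of freedom and 2.15 added by eBayes), and p-values were adjusted by Benjamini-Hochberg in each of 8 comparisons. p-values for named genes without a tool beside them are limma's. Alternatives were a pseudocount of 0.1, other filters, median centring, quantile normalization, eBayes without trend, the replicate block, fits restricted to the groups compared, removal of the trend with transcript length and leaving out each sample. The length correction with the block and the test of the concentration step between compounds were added after the data were seen. Transcript lengths came from GENCODE v44lift37, found for 94.9% of tested genes. The fit was tested on simulated data. Likeness and figures used Python 3.11.15.

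Named from each further list were up to 3 genes with the largest log2 fold change among those called with 5 µM CBP30 and with a mean of at least 1 FPKM, and, among paralogs and other induced genes, those called in at least 3 of the 4 treatments. A gene that this rule covers is left out of the text. SRF was named in addition to the rule. The 10 genes, the lists and this rule were chosen with earlier results of these data known. Likeness was looked up for DUSP6 and for the gene with the largest change with 5 µM CBP30.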

Additional observations from a re-analysis of the deposited data

Results flagged for a closer look

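For 4 of the 9 tested genes the step from 2 to 5 µM differed between CBP30 and I-CBP112, by a test of the difference of the steps in the same limma fit that was added after the data were seen. The step was larger with CBP30 for SPRY4 by 0.555 on the log2(FPKM + 1) scale (adjusted p = 0.04995, just under the threshold) and for PHLDA1 by 0.526 (adjusted p = 0.0399). It was more negative with CBP30 for ETV4 (difference −0.422, adjusted p = 0.0420) and for EGR1 (−0.336, adjusted p = 0.0448). Of all 12788 genes, 632 (4.94%) were called in this test. With the trend with transcript length removed, SPRY4 (0.42, adjusted p = 0.0233), ETV4 (−0.26, adjusted p = 0.0268) and EGR1 (−0.30, adjusted p = 0.0268) were called and PHLDA1 was not (0.31, adjusted p = 0.1003). With the replicate number as a block none of the 4 was called (adjusted p from 0.0681 to 0.0738 with the block). Without replicate 1 of 2 µM CBP30, the sample whose values fell with transcript length, all 4 were called (adjusted p from 0.0150 to 0.0306), and without replicate 2 as well (from 0.000676 to 0.00538).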

How the results depend on the processing

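Of 72 log2 differences (9 genes in 8 comparisons), 41 kept their side of the threshold under all 20 alternatives and none changed direction past it. The 8 calls with 5 µM CBP30 against DMSO held in every alternative in which the gene was tested; DUSP4 and PHLDA1 were not tested with a minimum mean of 5 FPKM, where 3 genes were higher with CBP30 than with I-CBP112 at 5 µM. In a fit of only the groups compared, 2 genes were higher with 2 µM CBP30, 0 were higher and 0 lower between the CBP30 concentrations, and 0 were higher with CBP30 than with I-CBP112 at 2 µM. Such a fit lacks the spread of the other conditions. The share of all tested genes called in each alternative, leaving out of samples included, is not given here. The counts therefore do not set these genes apart from others. With 2 µM I-CBP112, 2 were higher with no filter, 3 with the length trend removed, and 2 with the length trend removed and the replicate block. With no filter, SPRY4 was lost at 2 µM CBP30 and at 5 µM I-CBP112 (adjusted p = 0.0555 and 0.0664), and SPRED1 and SPRED2 between the CBP30 concentrations (0.0594 and 0.0536). Under quantile normalization 1 was lower between the CBP30 concentrations. The cause was not tested.

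When each sample was left out in turn, the number higher ranged from 3 to 5 with 2 µM CBP30 (lower 0 to 1), from 1 to 5 with 5 µM I-CBP112, from 1 to 3 with 2 µM I-CBP112, from 4 to 7 between the CBP30 concentrations (lower 1 to 2), from 4 to 6 between compounds at 5 µM, and from 1 to 4 between compounds at 2 µM (lower 0 to 1). Only 1 gene was called with 5 µM I-CBP112 without replicate 1 of DMSO or of 5 µM I-CBP112, and 2 without replicate 2 of either.

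Samples of the same number did not deviate together (correlations from −0.0681 to 0.0939 over 10 pairs of conditions), so the number was not taken to pair them. With the replicate block, the genes called higher were 7 with 5 µM CBP30, 4 with 2 µM CBP30, 4 with 5 µM I-CBP112 and 1 with 2 µM I-CBP112, and the calls lost were those of SPRY2.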
